A study of Homo sapiens with 6 samples.

Results

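Onvansertib-resistant H526 cells expressed 54 genes that were silent or nearly so in the parental cells. A gene was taken as switched on when its normalized value was 3 or lower in each of the 3 parental libraries, above 3 in each of the 3 resistant libraries and at least 10 on average in the resistant libraries. Genes on the Y chromosome were left out, as were zinc finger genes named ZNF, protocadherins, NAP1-like histone chaperones and CYP7B1, which removed NAP1L3, CYP7B1 and ZNF541 from 57 genes that met these values. The 54 genes came from 62710 in the table, of which 41892 were at 3 or lower in every parental library and off the Y chromosome, so that 0.136% of these silent genes met the values. The same values turned around, for genes on in parental and silent in resistant cells, found 62 genes off the Y chromosome. No names were left out of these, so they compare with the 57. Since the values of these 6 libraries chose the 54 genes, the difference between the groups is given for them as a description, with no test.

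H526 is a small cell lung cancer line, and onvansertib inhibits Polo-like kinase 1, a kinase that cells need to enter and complete mitosis. The resistant cells were the same line grown in onvansertib that was raised from 10 nM to 75 nM over 1 year, and RNA was taken from parental cells (libraries 1, 2 and 3) and resistant cells (libraries 7, 8 and 9) on 3 separate occasions. No genotype other than the resistance was given, the sources used here do not say whether the resistant cells were 1 clone or a pool, and the drug in the medium and the acquired state cannot be told apart. The comparison asks which genes accompany acquired resistance. Reads from the whole culture were measured, so a few cells with much RNA of a gene and many cells with little cannot be told apart.

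A silent gene usually has closed chromatin or a methylated promoter, and many tissue-restricted genes, such as those of germ cells, of the developing brain or of hair and skin, stay in that state in other tissues for the life of the cell. Several of the genes described here are known from such tissues. TEX11 works in meiosis, DLX3 is a developmental transcription factor, FXYD7 belongs to neurons, CDHR1 and VSX1 to the retina, and KLK13, KLK14 and KRT83 to skin and hair.

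Of the 54 genes, 35 were protein-coding, 16 were lncRNAs and 3 were pseudogenes. Protein-coding genes made up the smaller part of the silent genes and the larger part of those switched on: 35 of 5128 silent protein-coding genes (0.683%) met the rule against 16 of 14648 silent lncRNAs (0.109%) and 3 of 13872 silent pseudogenes (0.0216%). Most silent genes stayed silent, since 88.2% of the silent protein-coding genes were also at 3 or lower in every resistant library. The values are reads normalized for library size, and 1 read was worth about 1 unit in each library (0.891 to 1.08). At depths of 22306620 to 28477736 reads, 9 of the 54 genes had no read in any parental library, 10 were at 0 in exactly 2 of them, 15 in 1 and 20 in none. A listing at 0 allows up to 3 reads, a value of 2.84 on average in the parental libraries, and this limit covers counting error only.

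The levels reached were mostly low. TEX11 was among 2 genes with a resistant mean of at least 100, 12 genes lay between 20 and 100 and 40 between 10 and 20, with a median of 14.4. The summed value of the 54 genes was 1400, 1379 and 1467 in resistant libraries 7, 8 and 9 and 56.9, 51.5 and 56.2 in parental libraries 1, 2 and 3. Set per kilobase of the longest transcript, so that genes can be compared, the resistant means ran from 0.969 to 114 units per kb with a median of 7.26. On that scale TEX11 (114 units per kb) stood well apart, followed by DNMT3L-AS1 (34.3) and the lncRNA ENSG00000288072 (33.8).

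**Figure D1:**
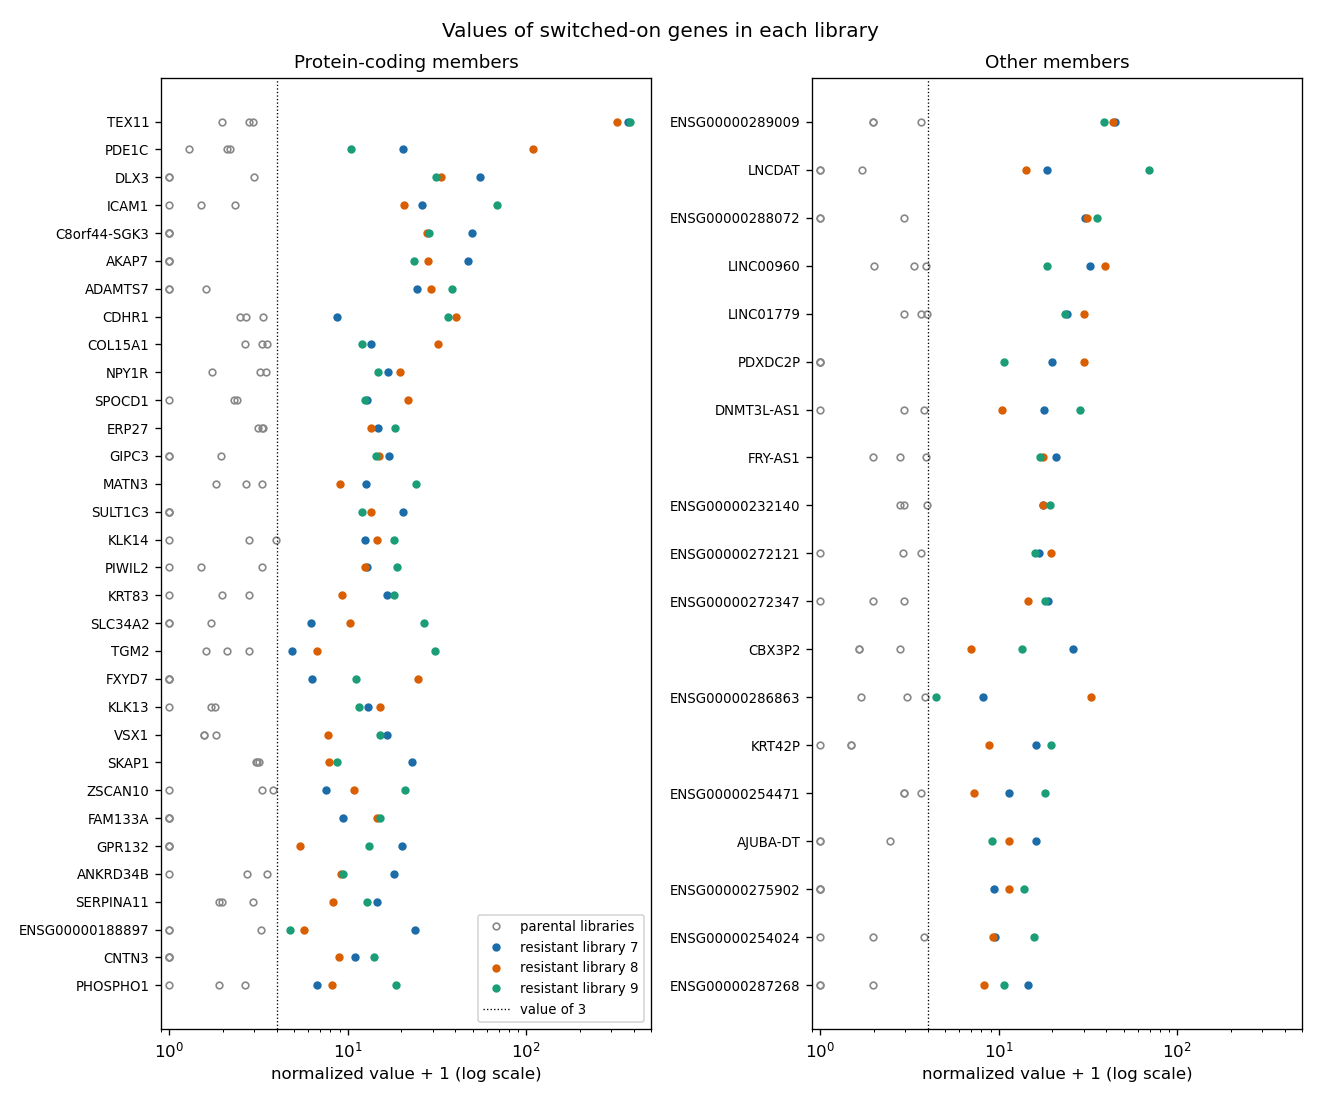
Normalized value plus 1 on a log axis for 51 of the 54 genes, with protein-coding genes on the left and lncRNAs and pseudogenes on the right, ordered by resistant mean. Open circles are the 3 parental libraries, filled circles the 3 resistant libraries, and the dotted line marks a value of 3. TEX11 (323 to 379) stands to the right of all other genes shown, while PDE1C, CDHR1 and TGM2 show resistant libraries spread widely along the axis.

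The sequence in front of a gene is where its silencing is usually held, and CpG dinucleotides are the bases that carry DNA methylation. RefSeq promoter sequences (GRCh38.p14, 250 bases before to 50 bases after the start) matched 25 of the 54 genes. The stretches that follow lie directly upstream of a gene or, for FAM133A, in the gap of 434 bases between it and NAP1L3. They are written 5′ to 3′ on the strand given, with the CpG dinucleotides in capitals. They are shown because they span the range found in genes with no parental read (AKAP7, CNTN3, SULT1C3 and FAM133A) and in the strongest gene, TEX11. AKAP7 (chr6:131135217-131135466, plus strand) holds 32 CpGs in 250 bases, CNTN3 (chr3:74614660-74614909, minus strand) holds 38, TEX11 (chrX:70908712-70908961, minus strand) holds 9, SULT1C3 (chr2:108239718-108239967, plus strand) holds 1, and the FAM133A gap (chrX:93673763-93674012, plus strand, read from the GRCh38 genome) holds 9.
AKAP7: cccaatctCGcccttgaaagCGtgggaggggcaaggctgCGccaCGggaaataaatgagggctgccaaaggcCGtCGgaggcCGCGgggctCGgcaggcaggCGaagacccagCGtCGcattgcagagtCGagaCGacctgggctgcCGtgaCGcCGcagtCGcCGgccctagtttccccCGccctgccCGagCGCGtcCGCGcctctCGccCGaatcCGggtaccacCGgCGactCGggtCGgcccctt
CNTN3: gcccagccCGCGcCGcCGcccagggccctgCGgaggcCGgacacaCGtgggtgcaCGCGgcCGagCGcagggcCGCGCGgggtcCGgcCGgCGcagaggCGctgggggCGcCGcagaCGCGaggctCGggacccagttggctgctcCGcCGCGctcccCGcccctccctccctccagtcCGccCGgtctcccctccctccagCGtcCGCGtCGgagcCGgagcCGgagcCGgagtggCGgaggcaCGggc
TEX11: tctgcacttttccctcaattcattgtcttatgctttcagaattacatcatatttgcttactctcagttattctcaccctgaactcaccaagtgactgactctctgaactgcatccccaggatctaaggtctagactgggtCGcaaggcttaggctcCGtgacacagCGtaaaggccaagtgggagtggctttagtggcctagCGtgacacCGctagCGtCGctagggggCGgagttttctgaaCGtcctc
SULT1C3: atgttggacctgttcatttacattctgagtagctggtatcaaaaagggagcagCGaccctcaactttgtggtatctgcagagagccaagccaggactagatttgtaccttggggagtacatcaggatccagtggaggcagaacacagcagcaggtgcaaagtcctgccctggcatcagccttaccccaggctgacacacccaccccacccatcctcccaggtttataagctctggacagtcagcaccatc
FAM133A: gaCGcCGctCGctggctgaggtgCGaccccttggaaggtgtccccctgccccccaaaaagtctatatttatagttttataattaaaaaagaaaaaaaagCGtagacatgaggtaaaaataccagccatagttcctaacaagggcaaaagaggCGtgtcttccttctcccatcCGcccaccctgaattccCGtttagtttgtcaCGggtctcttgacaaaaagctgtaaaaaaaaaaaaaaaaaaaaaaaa

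Genes without a single parental read thus had promoters both rich in CpG and almost free of it. Over the 25 matched genes, 15 (60%) had a CpG-rich start, meaning a GC content of at least 50% and an observed to expected CpG ratio of at least 0.6 in the 300 bases, against 58.6% of 19087 genes with a promoter in the table. Among protein-coding genes alone this was 13 of 22 against 64.4%. The median number of CpGs was 20 in the switched-on genes, 20 over all genes and 22 over all protein-coding genes. These backgrounds hold all genes with a promoter in the table, whether silent in parental cells or not.

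Short motifs, searched on both strands of the same 300 bases, were also about as frequent as elsewhere. The GC box GGGCGG was in 16 of 25 promoters (64.0%, against 54.4% of all promoters), the NF-kB-like pattern of GGG, any 5 bases and CC, which can overlap a GC box, in 19 (76.0%, against 64.6%), and the E-box CACGTG in 3 (12.0%, against 8.37%). TATAAA was in 3 (12.0%, against 10.2%). The interferon-stimulated response element, searched as GAAA, any 2 bases and GAAA (3.22% of all promoters), the cAMP response element TGACGTCA (2.44%) and the octamer ATGCAAAT bound by POU factors (1.75%) were in none of the 25 windows, which says only that these letters are not there. The gamma-activated site pattern TTCNNNGAA was in 3 (12.0%, against 7.28%), among them ICAM1. It is printed in capitals, as TTCCGGGAA, in the 223 bases in front of ICAM1 (chr19:10270870-10271092, plus strand), a gene known for its induction by interferon gamma through such a site.
ICAM1: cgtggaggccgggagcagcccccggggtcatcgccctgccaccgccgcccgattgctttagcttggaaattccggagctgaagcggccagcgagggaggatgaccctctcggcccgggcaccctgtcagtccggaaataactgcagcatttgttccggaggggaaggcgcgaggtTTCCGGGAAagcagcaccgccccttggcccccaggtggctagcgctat

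The strongest of the switched-on genes, TEX11, belongs to the germ line, and the weaker PIWIL2 and SPOCD1 are known from it as well. DNMT3L-AS1 is given with them only because it lies antisense to a germ cell gene. TEX11, an X-linked gene that meiotic cells need to form crossovers, had values of 1.78, 0.969 and 1.96 in parental libraries 1, 2 and 3 and of 371, 323 and 379 in resistant libraries 7, 8 and 9. It was among the most even of the 54 genes, with a highest to lowest ratio of 1.18 in the resistant libraries. PIWIL2, an Argonaute-family protein that binds piRNAs to silence transposons in germ cells, was at 2.29, 0.509 and 0 in the parental and 11.9, 11.4 and 18.0 in the resistant libraries. SPOCD1, which directs DNA methylation to transposons in the male germ line, was at 1.39, 0 and 1.31 against 11.9, 20.8 and 11.5. DNMT3L-AS1, the antisense lncRNA of the DNMT3L gene of germ cell DNA methylation, was at 0, 2.83 and 1.93 against 16.9, 9.36 and 27.6. DNMT3L itself stayed low at 1.16, 2.55 and 7.84 in the resistant libraries, and 46.1% of the antisense exons overlap it, so their reads cannot be told apart where strand is not recorded.

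Most other germ line genes stayed silent or did not pass the test. Of 53 genes in a list of meiosis and germ cell genes, TEX11 and PIWIL2 met the rule, and 22 were at 3 or lower in all 6 libraries, among them 13 with no read anywhere. Of the 18 other genes with enough signal to test, 4 were higher and 3 lower in resistant cells, in a comparison in which 17.8% of all 16347 tested genes were higher and 19.8% lower (limma on log2(value + 1), Benjamini-Hochberg adjusted p under 0.05). HSF2BP, which loads recombinases in meiosis, rose from 99.4 ± 21.5 to 322 ± 30.7 (SD, n = 3, log2 fold change 1.70 ± 0.19 SE, adjusted p = 8.03e-05 by limma), and TEX15 rose from 672 to 1061 (log2 fold change 0.67). RNF212, a meiotic crossover factor like TEX11, went the other way, from 22.1 ± 13.3 to 0.329 ± 0.570 (log2 fold change -4.06, adjusted p = 0.000823 by limma). HSF2BP lies on chromosome 21, as does DNMT3L-AS1, near which all 13 tested genes were higher.

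Transcription factor genes were switched on as well, among them DLX3, VSX1 and ZSCAN10. DLX3, a homeobox factor of hair, tooth and placenta, was at 2.0, 0 and 0 in the parental and 54.1, 32.3 and 30.2 in the resistant libraries. VSX1, a homeobox factor of retinal interneurons, was at 0.830, 0.558 and 0.565 against 15.6, 6.73 and 14.2, and ZSCAN10, a factor of pluripotent cells, at 2.81, 0 and 2.32 against 6.58, 9.85 and 19.8. Resistant library 7 was the highest of the 3 for DLX3 and VSX1 and the lowest for ZSCAN10.

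Relatives of DLX3 were already on in parental cells. DLX1 rose from 350 ± 28.5 to 570 ± 59.5 (log2 fold change 0.70, adjusted p = 0.00113 by limma) and DLX2 from 147 to 290 (0.98), while DLX5 and DLX6 did not pass the test. Of 16 tested genes that share the ZSCAN name none was higher and 4 were lower, and VSX1 had no relative with enough signal to test. Within a list of forebrain factors, 5 of the 16 tested genes outside the rule were higher and 1 lower, against 17.8% and 19.8% of all tested genes. The 5 were DLX1, DLX2, SIX3, NR2F1 and NKX2-1, and the last 3 had resistant means of only 15.0 to 22.1. Their calls were lost when single libraries were left out: that of SIX3 without parental library 2 or resistant library 8 or 9 (adjusted p of 0.0531 to 0.0881 by limma), that of NR2F1 without parental library 2 or 3 or any resistant library (0.0583 to 0.116) and that of NKX2-1 without parental library 1 or 3 (0.0712 to 0.0779). NR2F2 fell from 1387 to 773 (log2 fold change -0.84).

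Several switched-on genes act in cyclic nucleotide and receptor signalling. AKAP7, which anchors protein kinase A to membranes, had no read in any parental library and values of 46.0, 27.2 and 22.4 in the resistant ones, at least 11.2-fold higher than the limit of 3 reads per parental library. PDE1C, a calcium and calmodulin-dependent phosphodiesterase that breaks down cAMP and cGMP, was at 1.11, 1.18 and 0.298 against 19.4, 109 and 9.39. Its mean of 45.8 rested on library 8, which was 11.6 times library 9. GPR132, a G protein-coupled receptor of oxidised and lyso-lipids, was at 0 in the parental libraries and at 19.1, 4.38 and 12.2 in the resistant ones. NPY1R, a receptor of neuropeptide Y, was at 2.24, 0.731 and 2.48 against 15.7, 18.6 and 13.8, evenly across the resistant libraries. C8orf44-SGK3, a read-through of the kinase gene SGK3, was at 0 in each parental library and at 48.9, 26.7 and 27.7 in the resistant ones. As 97.4% of its exon bases lie in SGK3 or C8orf44, its value depends on how shared reads were divided and is uncertain. SGK3 itself rose from 231 ± 46.3 to 427 ± 16.4 (log2 fold change 0.90, adjusted p = 0.00115 by limma).

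Of 21 other tested genes of protein kinase A and its anchors, 7 were higher and 5 lower, against 17.8% and 19.8% of all tested genes. AKAP3 rose from 21.5 to 84.3 (log2 fold change 1.92), AKAP12 from 165 to 427 (1.37) and AKAP13 from 2062 to 4451 (1.11). The regulatory subunit PRKAR2B fell from 1409 to 811 (log2 fold change -0.79) and AKAP17A from 1422 to 902 (-0.66), and the catalytic subunits PRKACA and PRKACB did not pass the test. Among 15 tested genes that share the PDE name, 5 were higher and 2 lower, against the same shares of all tested genes. PDE4A rose from 2.48 ± 2.81 to 33.8 ± 0.830 (log2 fold change 3.71, adjusted p = 0.00151 by limma), with 5.53 in 1 parental library keeping it outside the rule, PDE9A rose from 363 to 913 (1.34), and PDE10A fell from 16.8 to 4.70 (-1.64). In a list of receptors for protons and lysolipids, to which GPR132 belongs, 3 of 9 tested genes were higher and none lower, against the same shares. They were S1PR5 (11.5 to 74.0, log2 fold change 2.61), LPAR5 (73.1 to 190, 1.38) and P2RY8 (161 to 291, 0.86). PDE4A and S1PR5 both lie within 500 kb of ICAM1 on chromosome 19, and are counted again among its neighbours below. PDE9A lies on chromosome 21.

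A further group serves cell adhesion and the extracellular matrix. ICAM1, the ligand of leukocyte integrins, was at 0, 1.34 and 0.515 in the parental and 25.2, 19.6 and 67.4 in the resistant libraries. ADAMTS7, a secreted metalloprotease of matrix proteins, was at 0, 0.616 and 0 against 23.3, 28.3 and 37.3. CDHR1, a cadherin of photoreceptors, was at 1.48, 1.70 and 2.34 against 7.74, 39.2 and 35.3, with library 7 well below the other two. COL15A1, a basement membrane collagen, was at 2.29, 1.66 and 2.52 against 12.5, 30.9 and 11.1, and MATN3, a cartilage matrilin, at 2.31, 0.838 and 1.70 against 11.7, 8.09 and 23.1. CNTN3, a contactin of neurons whose CpG-dense promoter is printed above, had no parental read and values of 10.0, 7.96 and 13.1. TGM2, which cross-links matrix proteins, was at 1.12, 0.608 and 1.81 against 3.85, 5.72 and 29.8, and owed its place to library 9.

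Among ADAMTS metalloproteases and their ADAMTS-like relatives, ADAMTS7 left out, 4 of 12 tested genes were higher and 1 lower. The shares over all tested genes were 17.8% higher and 19.8% lower. ADAMTS15 rose from 10.3 to 38.0 (log2 fold change 1.82), ADAMTS6 from 40.8 to 111 (1.42) and ADAMTS3 from 259 to 486 (0.91), ADAMTS16 fell from 198 to 83.0 (-1.24), and ADAMTS13 (12.2 to 39.5, 1.73) passed in the full set but lost its call without parental library 1 or 3 or resistant library 7 or 8 (adjusted p of 0.0628 to 0.175 by limma). MATN2 rose from 61.4 to 127 (log2 fold change 1.05).

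KLK13 and KLK14, secreted serine proteases of skin and glands, were the only switched-on genes within 500 kb of each other. KLK13 was at 0.802, 0.708 and 0 in the parental and 12.0, 14.2 and 10.6 in the resistant libraries, and KLK14 at 1.79, 0 and 2.95 against 11.6, 13.6 and 17.3. They are neighbours, with 12380 bases between them, at the end of the kallikrein block of chromosome 19, which holds 15 KLK genes in a row. The next 3 genes along the block were also higher in resistant cells. KLK12 was at 6.06, 7.51 and 6.25 against 46.9, 53.4 and 56.7 (log2 fold change 2.81 ± 0.33 SE, adjusted p = 0.000131 by limma). KLK11 was at 4.96, 10.6 and 12.3 against 19.8, 49.6 and 44.2 (1.90 ± 0.47 SE, adjusted p = 0.0104, and 0.0526 without resistant library 8). KLK10 was at 3.54, 0 and 0 against 47.2, 53.5 and 49.7 (4.95 ± 0.63 SE, adjusted p = 0.00022), missing the rule by a single parental library. From KLK9 to KLK1 the 10 remaining genes of the block were at 3 or lower in all 6 libraries, so the signal was held by the 5 adjacent genes from KLK10 to KLK14.

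**Figure D2:**
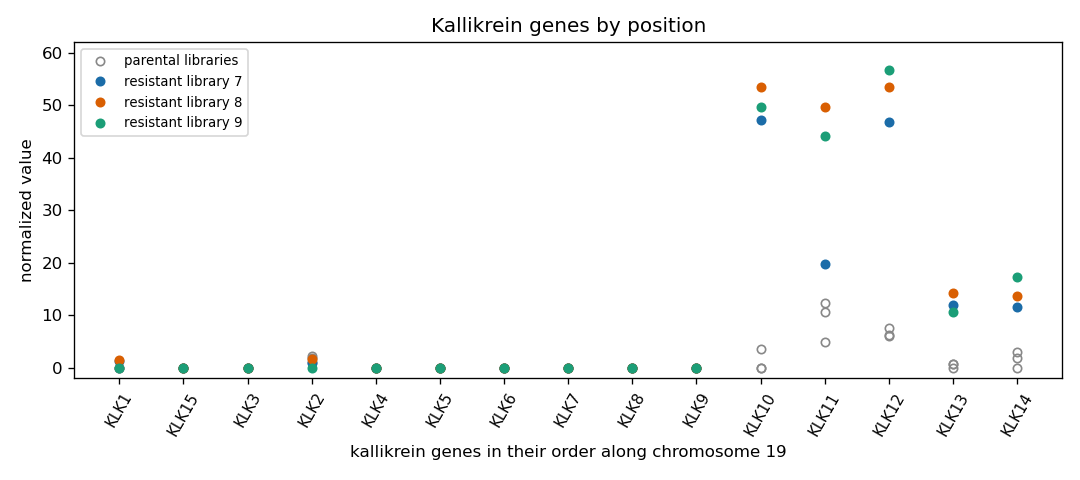
Normalized values of the 15 kallikrein genes in their order along chromosome 19, with open circles for the 3 parental and filled circles for the 3 resistant libraries. The genes from KLK10 to KLK14 at the right end carry resistant values of 10.6 to 56.7, and the 10 genes to their left lie at 3 or lower in every library.

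The genes of this paragraph have unrelated roles. FXYD7, a brain regulator of the sodium pump, was at 0 in each parental library and at 5.32, 23.8 and 10.1 in the resistant ones, with library 7 the lowest. SULT1C3, a sulfotransferase, had no parental read and values of 19.4, 12.5 and 10.96, and its 2 relatives in the SULT1C family stayed silent in all libraries. SLC34A2, a sodium and phosphate cotransporter of lung epithelium, was at 0, 0 and 0.706 against 5.25, 9.29 and 25.8. ERP27, a chaperone-like protein of the endoplasmic reticulum, was at 2.13, 2.30 and 2.34 against 13.8, 12.5 and 17.3, and GIPC3, a PDZ protein of the inner ear, at 0.938, 0 and 0 against 13.5 to 16.0. KRT83, a hair keratin, was at 1.78, 0 and 0.982 against 15.7, 8.33 and 17.2.

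Relatives of FXYD7 changed in both directions. FXYD5 rose from 11.7 ± 4.36 to 289 ± 14.4 (log2 fold change 4.56, adjusted p = 2.36e-06 by limma) and FXYD3 from 44.4 to 178 (2.01), while FXYD6 fell from 6139 to 4551 (-0.43). Over all genes that share a name root with a switched-on protein-coding gene, 56 of 288 tested were higher (19.4%) and 61 lower (21.2%), near the shares for all genes. Without the large and unrelated FAM names it was 49 higher (27.2%) and 37 lower (20.6%) of 180. The relatives of PIWIL2, SERPINA11, SLC34A2 and NPY1R gave no gene to test, since most of them were silent in both groups.

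The noncoding genes were led by ENSG00000289009, a lncRNA of chromosome 21 that starts 82 bases from PTTG1IP. It was at 2.67, 0.968 and 0.981 in the parental and 43.9, 42.7 and 37.7 in the resistant libraries, among the steadiest of all 54 genes. ENSG00000288072, a lncRNA of chromosome 19, was at 0, 0 and 1.96 against 29.3, 30.2 and 34.3. LINC00960 was at 1.00, 2.36 and 2.92 against 31.4, 38.3 and 17.5, and LINC01779 at 2.67, 1.94 and 2.95 against 22.97, 29.1 and 22.6. LNCDAT, a lncRNA that starts 780 bases from the mesoderm factor gene TBXT on the opposite strand, was at 0, 0.712 and 0 against 17.8, 13.3 and 68.6. TBXT rose with it, from 4.004 ± 2.96 to 24.3 ± 6.89 (log2 fold change 2.46, adjusted p = 0.00431 by limma), although its highest library was 8 and that of LNCDAT was 9. FRY-AS1, antisense within the microtubule-binding gene FRY, was at 1.78, 2.89 and 0.979 against 19.9, 16.7 and 16.1, and FRY rose from 849 ± 117 to 4104 ± 800 (log2 fold change 2.26, adjusted p = 2.81e-06 by limma). The library kit was not described as strand-specific, and 17.0% of the exon bases of FRY-AS1 and 10.8% of those of LNCDAT overlap exons of these partners, so part of their reads cannot be assigned.

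Overlap of this kind limited some other genes. In all, 28 of the 54 genes overlapped another gene body, 21 shared exon bases with another gene, and 3 shared over 50%. PDXDC2P, a pseudogene at 0 in the parental and at 18.8, 29.1 and 9.68 in the resistant libraries, lies wholly within exons of PDXDC2P-NPIPB14P, which was at 191 and 271 on average and did not pass the test (log2 fold change 0.48, adjusted p = 0.0753 by limma, and 0.0304 without resistant library 7). The lncRNA ENSG00000275902, at 0 against 8.41, 10.4 and 12.8, lies within exons of HGS, at 4595 and 4419. The values of these genes, like that of C8orf44-SGK3, are uncertain.

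The 3 resistant libraries agreed closely for some genes and poorly for others. The highest resistant value was over 3 times the lowest for 16 genes and under 1.5 times for 13. The highest value was in library 7 for 18 genes, in library 8 for 13 and in library 9 for 23, so no single library carried the set. For the 16 uneven genes the top library was 7 for 4, 8 for 6 and 9 for 6. Library 9 was the high one for TGM2, LNCDAT, SLC34A2, ICAM1, PHOSPHO1 and ZSCAN10. Library 7 was low against both others for CDHR1, and library 8 stood alone for PDE1C and for the lncRNA ENSG00000286863 (7.21, 32.0 and 3.46).

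The median coefficient of variation over the resistant libraries was 35.5%. Among genes with a resistant mean of 10 to 20, switched-on genes had a median of 35.5% and 1364 other genes one of 34.8%. Between 20 and 100 the 12 switched-on genes had a median of 36.4% against 21.9% for 3009 other genes, with PDE1C (119%), LNCDAT (92.5%), ICAM1 (69.8%) and CDHR1 (62.6%) at the top. That comparison is a description of few genes and was not tested.

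**Figure D3:**
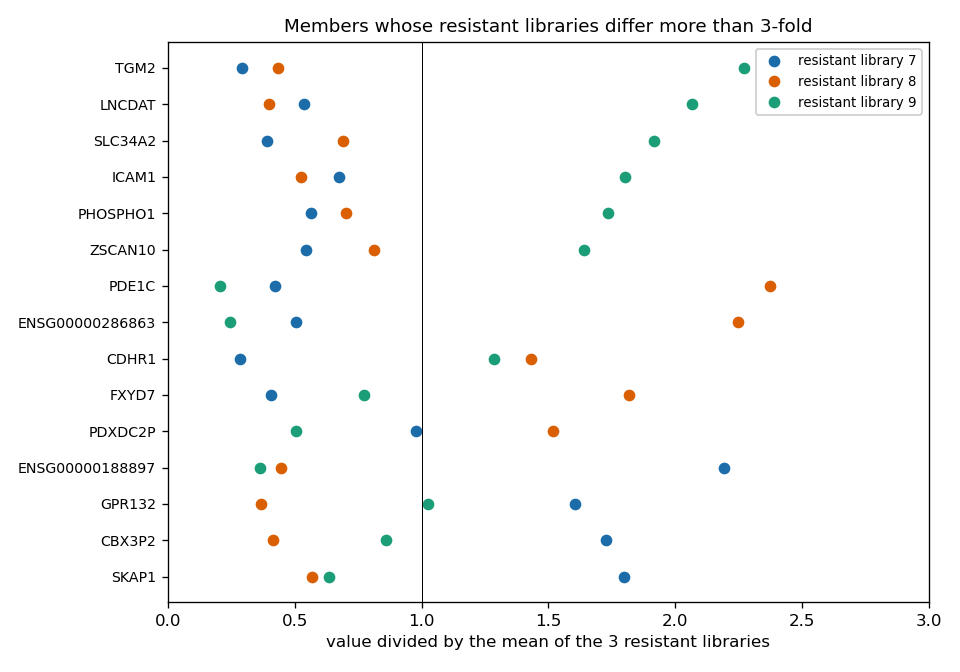
Value in each resistant library divided by the mean of the 3, for 15 of the 16 switched-on genes whose highest resistant value was over 3 times the lowest, grouped by the library that was highest. A line marks the mean. Library 9 lies far to the right for TGM2, LNCDAT, SLC34A2, ICAM1, PHOSPHO1 and ZSCAN10, library 8 for PDE1C and ENSG00000286863, and library 7 lies far to the left for CDHR1.

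Apart from the exclusion of the Y chromosome, position was not used to choose the switched-on genes. They were spread over 22 different chromosomes, with 6 on chromosome 19, 5 on chromosome 17 and none on chromosome 22, and apart from KLK13 and KLK14 none lay within 500 kb of another, although the names left out include NAP1L3 beside FAM133A. Yet tested genes around them were often higher in resistant cells. Of 656 tested genes within 500 kb of a switched-on gene, 199 were higher (30.3%) and 109 lower (16.6%), against 17.8% and 19.8% of all tested genes, with a median log2 fold change of 0.15 against -0.000858. The share of higher genes grew with nearness: 23.7% within 1000 kb, 34.8% within 250 kb and 41.0% within 50 kb (43 of 105, with 12 lower). The tested gene nearest to each of 51 switched-on genes was higher in 26 cases, lower in 5 and not called in 20. NAP1L3, which met the values of the rule, is counted in all of these as a higher gene near FAM133A. Neighbouring genes are not independent of each other, windows overlap, and genes near a switched-on gene can share its reads, and the part of these in the counts was not tested.

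Some neighbours of switched-on genes had large changes. TEX11 and the arginine transporter gene SLC7A3 lie 16867 bases apart on the X chromosome, and SLC7A3 rose from 21.9 ± 6.06 to 158 ± 35.6 (log2 fold change 2.81 ± 0.28 SE, adjusted p = 4.19e-05 by limma). AKAP7 and EPB41L2, a cytoskeletal protein 4.1 gene, start 72145 bases apart on opposite strands, and EPB41L2 was at 12.7, 23.7 and 5.85 in the parental and 600, 592 and 512 in the resistant libraries (5.42 ± 0.38 SE, adjusted p = 5.75e-06). DLX3 and DLX4 are a facing pair 15045 bases apart, and DLX4 rose from 17.0 ± 9.44 to 92.5 ± 4.68 (2.51, adjusted p = 0.000578). FXYD5, given above, lies 427 bases beyond the end of FXYD7. FAM133A, at 0 in the parental libraries and at 8.45, 13.6 and 14.2 in the resistant ones, starts 435 bases from NAP1L3, which met the values of the rule but was left out by name, with no parental read and values of 404, 391 and 444.

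Neighbours of other switched-on genes varied. Of 33 tested genes near ICAM1 8 were higher, PDE4A and S1PR5 among them, and 4 lower, against 17.8% and 19.8% of all tested genes. None was higher near NPY1R (3 tested), CDHR1 (3 tested) or TGM2 (7 tested). ICAM5 lies 3336 bases from ICAM1 and rose from 15.9 ± 5.75 to 62.7 ± 11.2 (log2 fold change 1.95, adjusted p = 0.00124 by limma). GPR132 lies within 500 kb of AHNAK2, which rose from 233 to 1078 (2.30), and PLD4, which rose from 69.8 to 691 (3.40). ADAMTS7 lies in the same stretch of chromosome 15 as CRABP1, the cellular retinoic acid-binding protein, which rose from 79.0 to 657 (3.05). Lower neighbours were also found. Near GIPC3, MATK rose from 61.5 to 660 (3.43) whereas ATCAY, a neuronal gene, fell from 490 ± 69.8 to 8.999 ± 2.65 (-5.65, adjusted p = 4.44e-07). Near COL15A1 none of 7 tested genes was higher and 4 were lower, including SEC61B (1078 to 433, -1.32) and ANKS6 (969 to 370, -1.39). CNTN3 and the pseudogene ENSG00000254471 had no tested gene within 500 kb.

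Some switched-on genes lay in regions where most tested genes were higher. Near DNMT3L-AS1 on chromosome 21 all 13 tested genes were higher (median log2 fold change 1.40), near ENSG00000289009 on the same chromosome 10 of 11 (1.24), and near AJUBA-DT on chromosome 14, a lncRNA at 0, 1.45 and 0 against 15.1, 10.4 and 8.15, 19 of 27 (0.56). Examples on chromosome 21 were the glycolytic gene PFKL (3210 to 10731, log2 fold change 1.74) and AGPAT3 (2877 to 7589, 1.40). Most tested genes were also higher near TEX11 (7 of 12, 0 lower), ADAMTS7 (8 of 15, 1 lower), GPR132 (14 of 26, 3 lower) and FRY-AS1 (4 of 5, 0 lower). The opposite held near ENSG00000272347 at the tip of chromosome 5, where 2 of 15 were higher and 9 lower. Leaving out chromosomes 14 and 21, 139 of 571 near genes were higher (24.3%) and 106 lower (18.6%), against 15.9% and 20.6% of all tested genes outside these chromosomes. Gene copy number was not measured in these libraries, and its part in these shares was not tested.

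**Figure D4:**
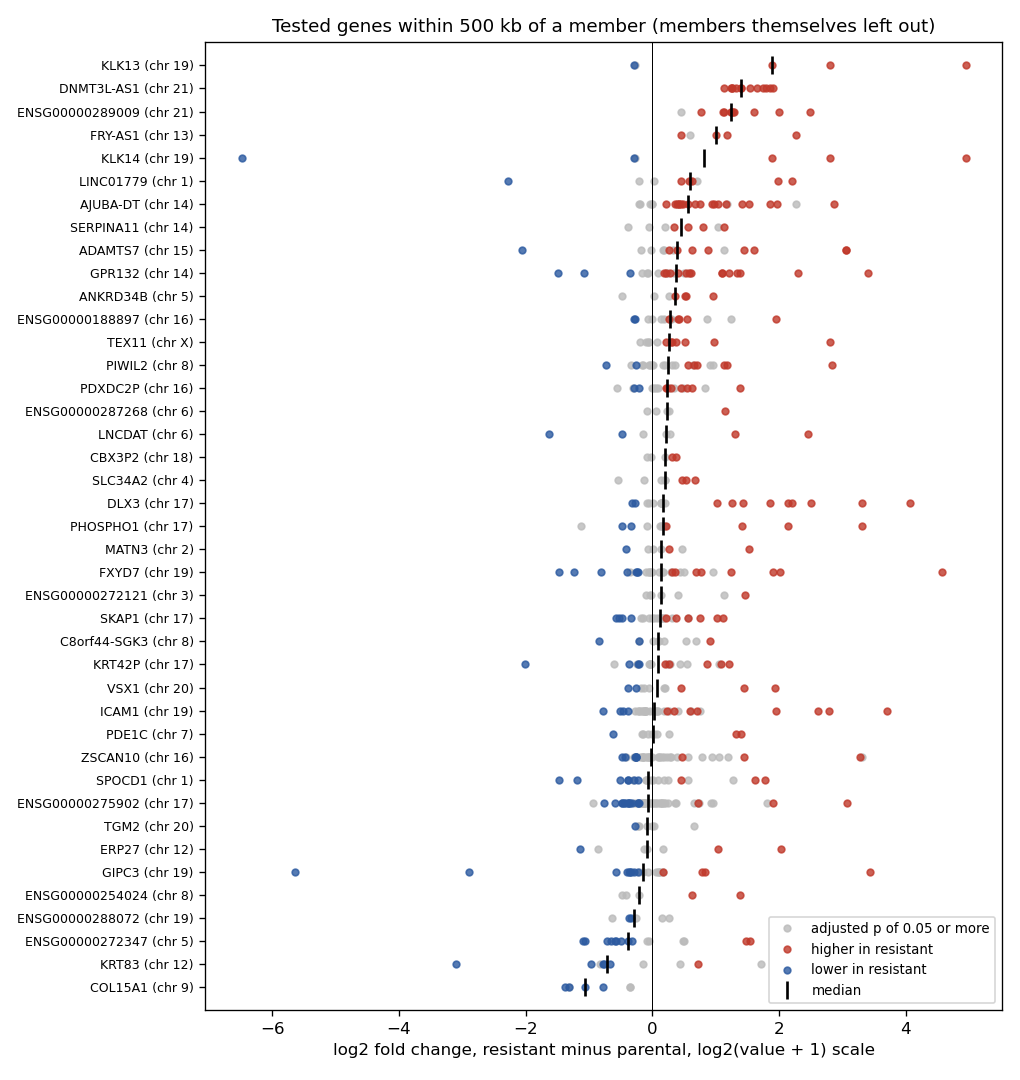
Log2 fold change (resistant minus parental, on log2(value + 1)) of every tested gene within 500 kb of a switched-on gene, for the switched-on genes reported here with at least 5 such neighbours. Each point is a neighbouring gene, red if higher, blue if lower and grey if the adjusted p was 0.05 or more, and a black bar marks the median. The rows of DNMT3L-AS1 and ENSG00000289009 lie wholly to the right of 0, with medians of 1.40 and 1.24, and that of COL15A1 to the left.

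Genes that set, read or remove silencing marks were measured in both groups. Of 42 tested genes of DNA methylation and Polycomb silencing, 7 were higher and 11 lower (median log2 fold change -0.07), against 17.8% and 19.8% of all tested genes. The list also holds genes that remove methylation (TET1, TET2, TET3 and TDG), so its counts mix opposed roles. TET1 and TET2 were among the 7 higher genes. EZH2, the Polycomb methyltransferase, fell from 5674 ± 311 to 3406 ± 224 (-0.74, adjusted p = 3.71e-05 by limma), TDG, which removes oxidised methylcytosine, from 4041 to 2188 (-0.88), and L3MBTL2, of the Polycomb complex that represses germ cell genes, from 1087 to 641 (-0.77). Among the higher genes MGA, a partner of L3MBTL2 in that complex, rose from 3391 to 4568 (0.43, adjusted p = 0.00708), and MBD2, which binds methylated DNA, from 903 to 1176 (0.38). DNMT1, the maintenance methyltransferase, rose from 10538 to 12362 (0.23, adjusted p = 0.0105, and 0.0563 without parental library 3). DNMT3A (2057 to 1525, -0.43) and UHRF1 (4226 to 3317, -0.35) were among the 11 lower genes. These levels lie beside the switched-on genes, and any part of them in the switch was not tested.

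Drug efflux and metabolism genes were 4 higher and 3 lower of 16 tested, against 17.8% and 19.8% of all tested genes. None of the list was switched on by the rule. ABCG2, a multidrug efflux pump, came close, at 2.31, 3.78 and 0 in the parental and 14.9, 16.2 and 26.3 in the resistant libraries (log2 fold change 2.96 ± 0.66 SE, adjusted p = 0.00602 by limma). ABCB1, the best known efflux pump, was listed at 0 in all 6 libraries. NQO1 rose from 137 to 362 (1.39), while GSTP1 fell from 18064 to 9897 (-0.87) and ALDH1A1 from 3613 to 1814 (-0.98).

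Markers of other cell types were checked, since ICAM1, COL15A1 and SKAP1 (2.08, 2.10 and 2.18 against 21.8, 6.87 and 7.71), a T cell adaptor gene, are also expressed by cells outside the tumour lineage. Of 10 leukocyte markers 8 were at 3 or lower in each parental library and 7 in all 6 libraries. PTPRC, which defines leukocytes, was at 0 in every resistant library, and the summed level of the list was 23.2 to 23.8 in parental and 18.3 to 32.6 in resistant libraries. Of 10 fibroblast markers 3 of 5 tested were higher and none lower, with COL1A1 rising from 59.7 to 269 (log2 fold change 2.20) and PDGFRA from 8.98 to 69.8 (2.82), and 2 were at 3 or lower throughout. Over all tested genes 17.8% were higher and 19.8% lower. The fibroblast sum was 3542 to 4175 in parental and 3947 to 4775 in resistant libraries, most of it THY1, which did not pass the test. THY1 was left out of a further sum after its values were seen. The other 9 markers then summed to 156 to 199 in parental and 468 to 670 in resistant libraries. Most of that sum was COL1A1, COL1A2 (86.0 to 201) and PDGFRA. COL3A1 (18.0 to 10.6) did not pass the test. Endothelial markers (sum 254 to 344 and 480 to 525.98, 1 of 2 tested higher, 5 of 8 silent throughout, among them CDH5) and lung epithelium markers (731 to 1451 and 1717 to 2371, 1 of 3 tested higher, 6 of 10 silent throughout) had higher sums in resistant cells as well. Most of the endothelial sum was VWF (276 to 465), and most of the lung epithelium sum was MUC5B (1099 to 2063). AGER (58.2 to 42.6) and FOXJ1 (18.0 to 11.5), the other tested lung epithelium markers, did not pass the test. The part of these markers in COL15A1 and the other switched-on genes was not tested.

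The line itself kept its identity marker. POU2F3, the tuft cell factor that defines a subtype of small cell lung cancer, was at 25809 ± 1178 in parental and 27273 ± 535 in resistant cells (log2 fold change 0.08, adjusted p = 0.304 by limma, but 0.28 and 0.00199 after quantile normalization). Of 18 tested tuft cell markers 10 were higher and 5 lower, and of 13 tested neuroendocrine markers 1 was higher and 9 lower (median -1.21), with CHGA falling from 254 to 12.8 (-4.22). Over all tested genes 17.8% were higher and 19.8% lower.

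The limits of the rule cut through a continuum. Just inside the limit of 10 on the resistant mean were PHOSPHO1 (10.1), ENSG00000287268 (10.2) and CNTN3 (10.3), and just outside were SHISA8 (9.93), ENSG00000287935 (9.90) and LRRC71 (9.88). Just inside the parental ceiling of 3 were KLK14, LINC01779 and ENSG00000232140, each with a highest parental value of 2.94 to 2.95, and just outside were TRPV4 (3.05), SLC52A1 (3.08) and UGT3A1 (3.18), the last with resistant values of 59.7, 15.9 and 14.02. A further 19 silent genes reached a resistant mean of 10 but had a resistant library at 3 or lower.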

How the data were processed

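RNA of H526 cells was sequenced in 3 parental and 3 resistant libraries. Per the labels and the methods of the study, the authors trimmed reads with Trimmomatic 0.38, aligned and quantified them with STAR and RSEM 1.3.1 on GRCh38 with Gencode v43, and normalized gene counts with DESeq2 1.30.0. The deposited values are this normalized signal. They are not counts, and since 36.2% to 58.0% of low values were whole multiples (within 0.03) of the value of 1 read, whole reads could not be had and a count model, planned in case counts were held, was not fitted. The values of 1 read gave the depths.

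Of 62757 rows, 47 second copies of pseudoautosomal genes were left out, and 62639 of 62710 matched Gencode v44 without the version of the identifier. Every one of the 54 genes had the same identifier version. The 16347 genes averaging 10 or more across all 6 libraries entered limma 3.58.1 in R 4.3.3 as log2(value + 1) (lmFit and eBayes with an intensity trend, no covariate, Benjamini-Hochberg adjustment at 0.05), so fold changes of low genes are understated. Of the 54 genes, 15 passed this filter and 39 did not. Positive changes are higher in resistant cells. RNA was extracted at 3 different times, but the sources used here do not say whether from separate cultures, so p-values measure the spread between these extractions, part of which may be technical. The fit was tested on simulated data. Python 3.11.15 served for all else (pandas 2.3.3, numpy 2.4.6, matplotlib 3.10.9).

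The 54 genes and all lists were chosen with earlier results of these data known. Named were the 20 protein-coding and 8 other switched-on genes with the highest resistant mean, those nearest the limits or to each other, AKAP7, TEX11, ADAMTS7, GPR132, PDXDC2P and C8orf44-SGK3, up to 2 near genes and relatives of each by p, and the called genes of a list (3 per direction where over 5). SLC34A2, TGM2, FXYD7, VSX1, SKAP1, ZSCAN10, FAM133A, ENSG00000286863, ENSG00000275902, ENSG00000272347, ENSG00000254471, AJUBA-DT, TET1, TET2, and neighbours and relatives beyond these numbers, were named after their values were seen. So were DNMT3A, UHRF1, COL3A1, AGER and FOXJ1. Results of 3 of the 54 genes are not reported here. Settings also tried were a pseudocount of 0.1 or 10, all genes without a filter or only those averaging 50, quantile or TMM normalization, limma with no trend, other limits and windows, and each library left out.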

Additional observations from a re-analysis of the deposited data

How the results depend on the processing

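The number of switched-on genes follows the limits closely. It was 18 with a parental ceiling of 1, 135 with a ceiling of 5, 176 with a resistant mean of at least 5 and 14 with at least 20. TMM scaling left the 54 genes as they were. With a library left out it was 56 to 104, where dropping a parental library adds genes (83 without library 1, 104 without library 2 and 91 without library 3) since fewer libraries must be low. Of the 54 genes, 46, 52 and 45 remained without resistant library 7, 8 and 9, respectively.

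The counts of called genes near switched-on genes changed with the window. Within 250 kb 182 were called, 129 higher and 53 lower. Within 1000 kb 495 were called and 230 were lower. Within 50 kb, a window added after seeing the data, 55 were called, 43 higher and 12 lower. Without the FAM names, also added later, 37 relatives were lower. Leaving out chromosomes 14 and 21 was added later too. Under all other settings run, the counts over all genes, near genes, relatives and lists stayed within 1.5 times, and no direction turned. For 97 of the named genes outside the rule, changes across the settings kept their direction and their side of the threshold in 1190 cases. Another 36 calls were lost and 5 gained. The lost ones were of KLK11, RBP5, ADAMTS13, CCNB1IP1, REC8, DNMT1, SIX3, NR2F1, NKX2-1 and CYP1B1.

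No paired analysis was possible because the labels do not say which parental library shares an extraction time with which resistant one (parental ones are numbered 1 to 3 and resistant ones 7 to 9), although RNA of both was taken at 3 times and the study describes the cells as matched. At these depths a listing at 0 allows up to 3 reads per library, and a resistant mean near 10 rests on about 10 reads.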

Other observations

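Among the 19 silent genes that reached a resistant mean of 10 with a resistant library at 3 or lower, single libraries stood out. H2AC19, a replication-dependent histone gene, was at 0 in every parental library and at 0, 0 and 546 in resistant libraries 7, 8 and 9. The coagulation factor gene F5 was at 40.8, 0.709 and 0, DOCK2, a signalling gene of leukocytes, at 33.6, 2.59 and 2.01, and CSMD3 at 5.31, 35.8 and 0. KCNH5, a neuronal potassium channel, was at 0.832, 15.8 and 17.1, with library 7 low as for CDHR1. These genes were named after their values were seen.

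A further 182 genes were at 3 or lower in each parental library and above 3 in each resistant library but had a resistant mean under 10.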
